A study of Rattus norvegicus with 15 samples.

Results

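The genes described here are 10 genes of the blood vessel wall and of the growth factor system that builds it: Kdr, Flt1, Nrp1, Vegfa, Tek, Tie1, Angpt1, Angpt2, Pecam1 and Eng. They were picked by name, and every probe set whose platform annotation gave exactly 1 of these symbols was taken, which gave 15 of 31042 non-control probe sets and 10 of 14217 named genes. Signals were measured in whole testes of rats of the F1 hybrid LBNF1, aged 25 to 27 weeks in both groups, on Affymetrix expression arrays. The irradiated group holds 5 arrays from testes of rats whose lower abdomen received 6 Gy, and the control group holds 10 arrays from testes described as taken before irradiation. How long after irradiation the testes were collected is not stated in the labels. The titles call the arrays biological replicates without saying that each is a different rat, so p-values measure the spread between these arrays.

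Vascular endothelial growth factor A, the product of Vegfa, acts on endothelial cells through the receptor tyrosine kinases encoded by Kdr (VEGF receptor 2, the main signalling receptor) and Flt1 (VEGF receptor 1, which binds the ligand tightly and signals weakly), with neuropilin 1 (Nrp1) as co-receptor. A parallel system of Tek (Tie2), its relative Tie1, the agonist angiopoietin 1 and the context-dependent antagonist angiopoietin 2 governs the stability of formed vessels. Pecam1 is an adhesion molecule of endothelial cell junctions, also found on platelets and leukocytes, and endoglin (Eng) is a co-receptor for ligands of the TGF-beta and BMP family. In the testis, vessels run in the interstitium between the tubules, beside Leydig cells and macrophages.

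RefSeq promoter windows on the rat assembly GRCr8, from 250 bases before to 50 after the annotated start, were found for 6 of the 10 genes (Kdr, Flt1, Nrp1, Vegfa, Tie1 and Eng). The windows of the VEGF receptors, whose signals moved apart in the data below, and of their ligand are shown 5′ to 3′. Capitals mark every match, on either strand, to the ETS factor core GGAA, to the hypoxia response core ACGTG and to the Sp1 box GGGCGG. The hypoxia core was searched without flanking letters, and matches that overlap are all capitalised. For Vegfa, the table holds a further annotated start, which is not shown.
Kdr, chr14:32571813-32572112, plus strand: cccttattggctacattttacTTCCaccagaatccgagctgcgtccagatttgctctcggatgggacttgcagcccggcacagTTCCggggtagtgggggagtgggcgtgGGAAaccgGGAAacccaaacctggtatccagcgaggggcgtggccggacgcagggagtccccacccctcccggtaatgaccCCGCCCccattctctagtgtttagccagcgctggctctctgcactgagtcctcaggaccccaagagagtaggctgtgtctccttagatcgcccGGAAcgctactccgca
Flt1, chr12:12333180-12333479, plus strand: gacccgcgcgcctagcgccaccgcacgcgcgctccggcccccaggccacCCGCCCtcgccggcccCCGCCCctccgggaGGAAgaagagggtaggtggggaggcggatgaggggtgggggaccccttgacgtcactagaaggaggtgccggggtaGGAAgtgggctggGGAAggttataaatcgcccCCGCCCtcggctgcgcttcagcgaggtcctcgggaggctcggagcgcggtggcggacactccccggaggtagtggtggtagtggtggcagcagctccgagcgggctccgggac
Nrp1, chr19:73256307-73256606, plus strand: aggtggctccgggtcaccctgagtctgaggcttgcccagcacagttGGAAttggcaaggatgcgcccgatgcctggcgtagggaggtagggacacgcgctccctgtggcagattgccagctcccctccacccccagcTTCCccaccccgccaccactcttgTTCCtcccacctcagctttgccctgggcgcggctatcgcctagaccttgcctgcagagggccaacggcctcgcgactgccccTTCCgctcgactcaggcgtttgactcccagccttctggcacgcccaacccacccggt
Vegfa, chr9:22452604-22452903, plus strand: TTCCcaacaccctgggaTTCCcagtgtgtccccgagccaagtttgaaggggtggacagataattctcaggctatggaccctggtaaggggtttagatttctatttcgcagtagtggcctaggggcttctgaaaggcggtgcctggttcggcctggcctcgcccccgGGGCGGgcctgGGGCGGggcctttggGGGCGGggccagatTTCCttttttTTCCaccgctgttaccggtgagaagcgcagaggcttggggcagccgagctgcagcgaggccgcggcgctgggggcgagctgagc
The Kdr window held 5 ETS cores and 1 Sp1 box, the Flt1 window 3 and 3, the Nrp1 window 4 and 0, and the Vegfa window 4 and 3. None of these 4 windows held the hypoxia core letters, and sequence outside the windows was not searched. Among all 33469 promoter windows of this length, 95.8% held an ETS core, 33.1% an Sp1 box and 19.3% a hypoxia core, so an ETS core in each window is what almost any promoter shows. A match of letters is a description of the sequence and not a binding site.

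Signals are log2 values whose zero point is unknown, and a change is the irradiated mean minus the control mean. Array medians lay between -1.38 and -1.26 in irradiated arrays and between -1.61 and -1.37 in control arrays. The files used here hold no detection calls, so a probe set that stayed under the median signal of each array of a group is called dim in that group, and its change is given as a bound ("at least"), with the dim group set at the array median or at its own value where that was higher. Where only the mean of a group lay below the mean of its array medians, the change with every value set to no less than its array median (the floored change) is likewise given as "at least". A probe set was tested with limma if it reached the array median in at least 5 of the 15 arrays. The change in the organ as a whole was large: 83.4% of 18711 tested probe sets passed an adjusted p of 0.05, and markers of spermatocytes and spermatids averaged between -4.30 and -3.01 in irradiated arrays, against 4.03 to 4.48 in control arrays. All 19 tested markers of these germ cells fell, while 14 of 14 tested Sertoli cell markers rose. In a whole organ, fewer cells of a type and less RNA per cell cannot be told apart, and the part that the lower germ cell signal plays in the vascular changes was not tested. Changes are therefore also given with every array centred on the mean of the Sertoli cell markers, called the Sertoli centring, which moved the median change of all genes from 0.20 to -1.69. These 14 markers were Gata4, Wt1, Amhr2, Inha, Inhbb, Clu, Cldn11, Gja1, Dhh, Vim, Kitlg, Ctsl, Shbg and Dmrt1. Their changes ran from 0.32 (Dmrt1) to 2.99 (Vim). How far other testis cells share these transcripts was not tested, so their mean is no pure Sertoli cell reference. After the floor was applied first, the Sertoli centring moved it to -1.71, an alternative chosen after seeing the data. Quantile normalization moved it to -0.06. Of all probe sets past the threshold, 58.8% were higher in irradiated arrays as deposited, 51.2% after quantile normalization and 12.8% with the Sertoli centring.

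In irradiated testes, Nrp1 showed the largest measured rise of the 10 genes. Kdr, Eng, Pecam1, Tie1 and Angpt2 rose from control signals that lay below the array median in all or all but 1 of the arrays. Vegfa and Tek rose from control signals that reached the median in 5 of 10 arrays, and Flt1 fell. Of the 10 genes, 8 passed higher, 1 passed lower, and Angpt1 was not tested. Among all 10841 genes tested, 47.6% passed higher and 37.9% passed lower, 85.5% in all. Of the 15 probe sets, 10 were tested, 9 higher and 1 lower, where 49.0% and 34.3% of all tested probe sets did so. The probe sets of Angpt2 and Pecam1, the Kdr probe set 1367948_a_at and the Nrp1 probe set 1373577_at (4 in all) reached the array median in the irradiated arrays only, so that to be tested they had to be higher there. The Flt1 probe set 1369087_at reached it in control arrays only (9 of 10), so it could be called only lower. The count of tested members is thus no measure of how often such genes rise or fall. In 8 of the 15 probe sets all 5 irradiated arrays lay above all 10 control arrays, in none did they all lie below, and in 7 the groups overlapped. Of all 31042 probe sets, 29.1% had the irradiated arrays all above and 16.7% all below, 45.9% in all.

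**Figure D1:**
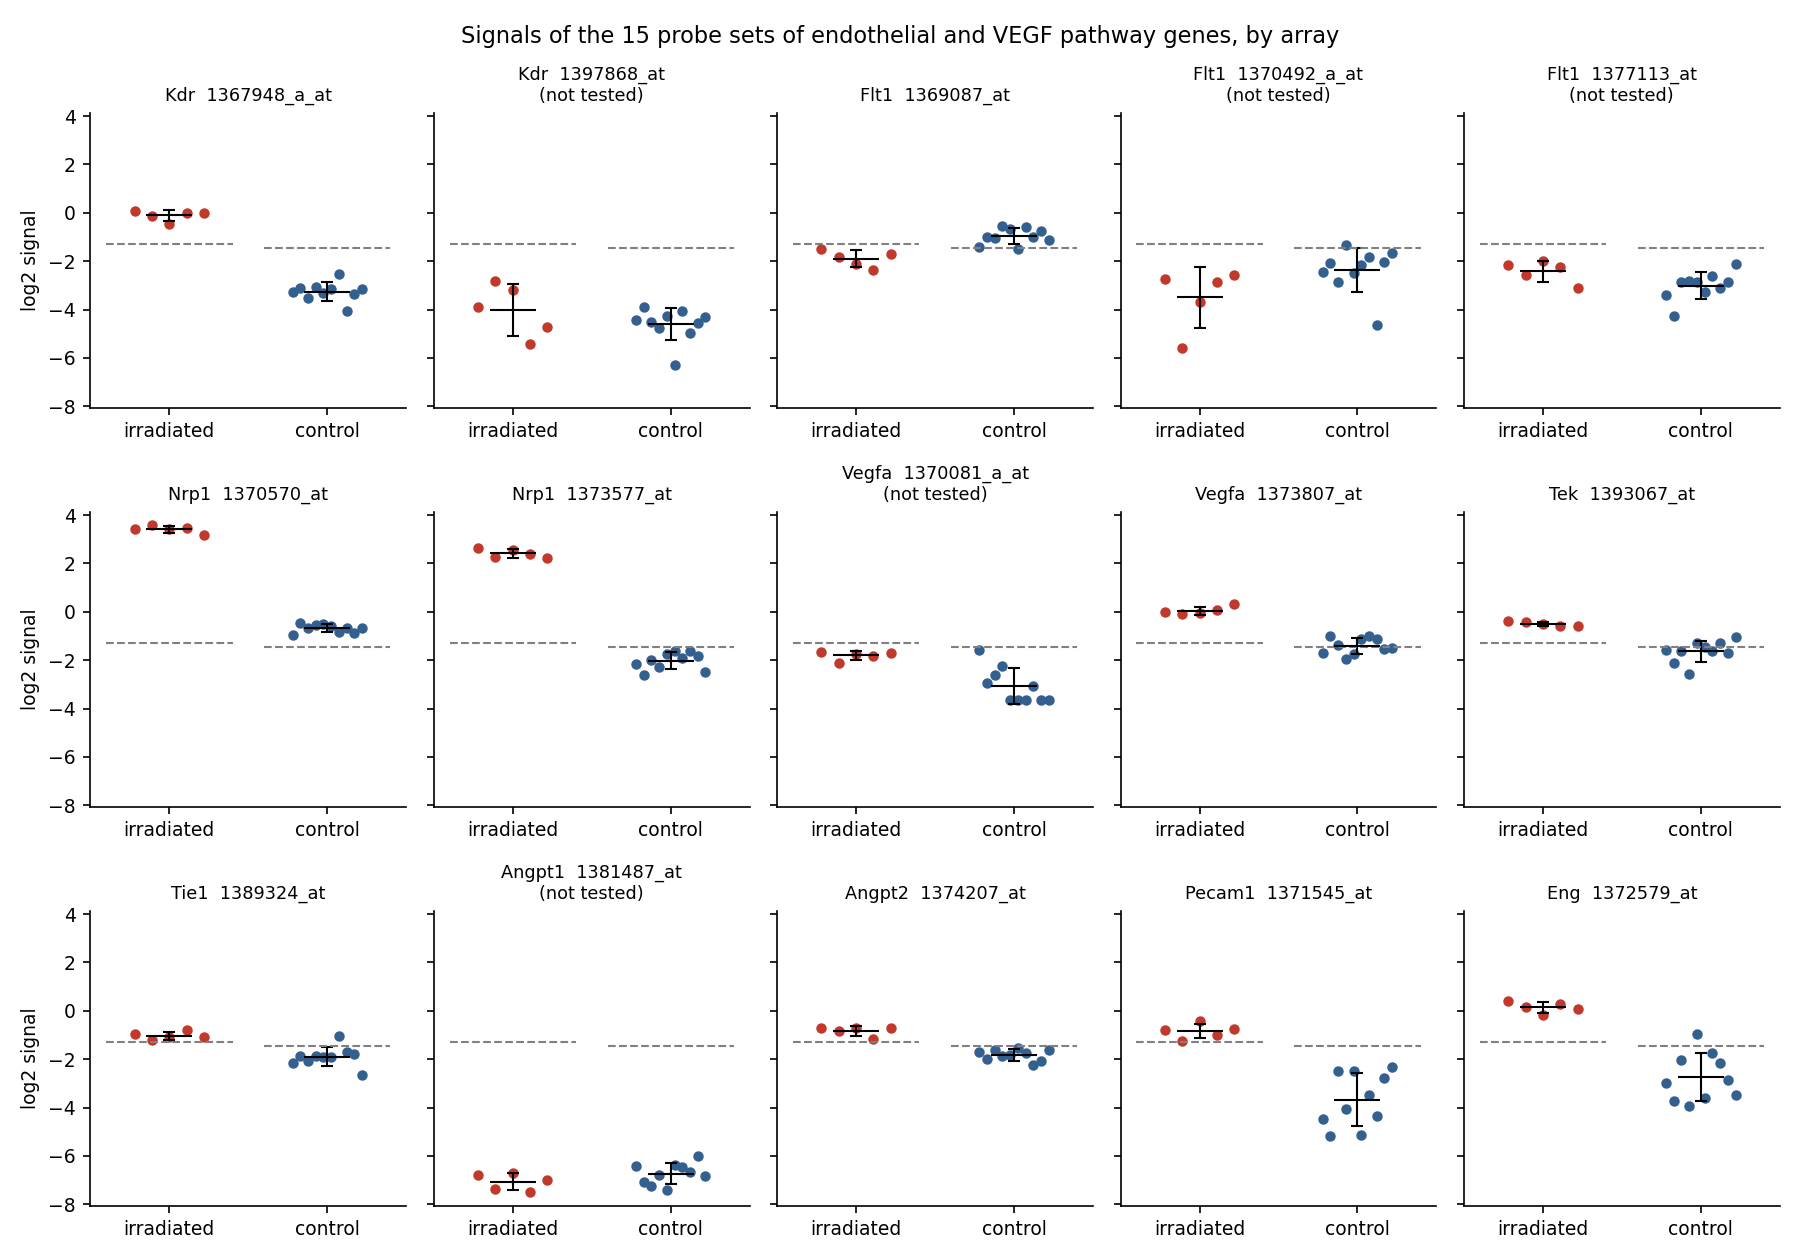
Log2 signal (vertical axis) of each of the 15 probe sets in 5 irradiated (red) and 10 control (blue) arrays, with the mean and SD in black and the group's mean array median as a dashed line. Nrp1 stands clear of the line in irradiated arrays with both probe sets, Kdr 1367948_a_at crosses it, Flt1 1369087_at lies lower in irradiated arrays, and Angpt1 lies far below the line in both groups.

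Nrp1, the co-receptor that binds both VEGF and class 3 semaphorins, was measured above the array median in all 15 arrays by probe set 1370570_at. Its log2 signals were 3.42, 3.57, 3.42, 3.47 and 3.16 in the irradiated arrays, against a lowest of -0.94, a median of -0.66 and a highest of -0.45 in the control arrays. The groups were separated by more than the whole range of either group. The change was 4.08 ± 0.10 (SE), a 16.9-fold higher signal (limma adjusted p = 8.26e-16). With all values at no less than the array median, 99.8% of the tested genes had a lower change than Nrp1. This share was 83.5% for Eng, 79.9% for Kdr, 79.4% for Vegfa and 69.4% for Tek. It was 62.8% for Angpt2, 62.4% for Pecam1, 56.0% for Tie1 and 31.7% for Flt1. The other Nrp1 probe set, 1373577_at, gave 2.65, 2.27, 2.54, 2.38 and 2.23 in irradiated arrays, and in control arrays it was dim, from -2.63 to -1.61. It was at least 14.7-fold higher (adjusted p = 1.62e-13). With the Sertoli centring, the 2 probe sets still rose, by 2.19 and 2.55 (adjusted p = 6.57e-13 and 6.32e-10), and by 2.19 and 1.99 with floored values.

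Kdr, the main signalling receptor for VEGF, was dim in every control array and above the median in every irradiated array with probe set 1367948_a_at. The irradiated signals were 0.07, -0.12, -0.47, -0.01 and 0.01, and the control signals had a lowest of -4.06, a median of -3.22 and a highest of -2.51. No control array came near the irradiated ones. The signal was at least 2.57-fold higher in irradiated testes, with a measured change of 3.16 ± 0.18 (SE, adjusted p = 4.90e-11), and a change of 1.26 with the Sertoli centring (adjusted p = 4.73e-06). That value rests on dim control signals, and with floored values the Sertoli-centred change was -0.53 (adjusted p = 1.73e-05). The other Kdr probe set, 1397868_at, was dim in all 15 arrays and was not tested. Its values ran from -5.44 to -2.82 in irradiated and from -6.27 to -3.88 in control arrays, which gives no size of change.

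Flt1, the receptor that takes up VEGF with little signalling, went the other way. Probe set 1369087_at had signals of -1.50, -1.81, -2.13, -2.36 and -1.69 in irradiated arrays, all of them dim, against a lowest of -1.51, a median of -1.0 and a highest of -0.53 in control arrays. The groups touched at their edges, where irradiated replicate 1 lay just above control replicate 6. Flt1 was at least 1.27-fold lower (measured change -0.93 ± 0.18 SE, adjusted p = 0.000113), and the change was -2.82 with the Sertoli centring. Neither of its other probe sets was tested. Probe set 1370492_a_at ran from -5.61 to -2.59 in irradiated and from -4.63 to -1.34 in control arrays, and 1377113_at from -3.09 to -2.01 in irradiated and from -4.26 to -2.12 in control arrays. Their measured differences had opposite signs, -1.14 and 0.61, and without the filter on dim probe sets neither passed (adjusted p = 0.0685 and 0.0614). The fall of Flt1 therefore rests on a single probe set, which was tested through control arrays only.

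Vegfa, the ligand, was measured by probe set 1373807_at at 0.00, -0.10, -0.07, 0.09 and 0.32 in irradiated arrays, against a lowest of -1.94, a median of -1.44 and a highest of -0.98 in control arrays. All irradiated arrays lay above all control arrays. The signal was 2.74-fold higher, a change of 1.45 ± 0.16 (SE, adjusted p = 2.12e-07), or 2.54-fold with floored values, but the change was -0.44 with the Sertoli centring (adjusted p = 0.0381). The other Vegfa probe set, 1370081_a_at, lay between -2.10 and -1.65 in irradiated arrays, all dim, and between -3.66 and -1.58 in control arrays, and was not tested. Only control replicate 1, at -1.58, overlapped the irradiated arrays there. Without the filter its measured change of 1.26 passed (adjusted p = 0.0026), as 37.8% of all probe sets did on the higher side without the filter, but only 1 of its 15 values reached the array median.

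The receptor of the angiopoietins, Tek, had signals of -0.39, -0.42, -0.49, -0.58 and -0.58 in irradiated arrays, against a lowest of -2.57, a median of -1.60 and a highest of -1.04 in control arrays (probe set 1393067_at). The groups did not overlap, and the irradiated values were more tightly grouped, with an SD of 0.09 (n = 5) against 0.44 in control arrays (n = 10). The change was at least 0.90 on the log2 scale, with a measured value of 1.14 ± 0.19 (SE, adjusted p = 3.32e-05), and -0.75 with the Sertoli centring. Tie1, the orphan relative that modulates Tek, gave -0.94, -1.21, -1.10, -0.79 and -1.09 in irradiated arrays, and a lowest of -2.64, a median of -1.89 and a highest of -1.05 in control arrays (1389324_at). Control replicate 7 lay among the irradiated arrays and the other control arrays below them. The Tie1 change was at least 0.41 (measured 0.87 ± 0.18 SE, adjusted p = 0.000281), and -1.02 with the Sertoli centring.

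Of the angiopoietins, Angpt2, which activated endothelium stores and releases, was dim in every control array. Probe set 1374207_at gave -0.70, -0.84, -0.70, -1.17 and -0.70 in irradiated arrays, against a lowest of -2.25, a median of -1.79 and a highest of -1.54 in control arrays, with no overlap. It was at least 1.56-fold higher in irradiated testes (measured change 1.00 ± 0.12 SE, adjusted p = 1.08e-06), and the change was -0.89 with the Sertoli centring. Angpt1, the agonist made by cells around the vessels, lay far below the array median in all 15 arrays (1381487_at). Its values were -6.78, -7.35, -6.72, -7.50 and -7.02 in irradiated arrays, against a lowest of -7.40, a median of -6.74 and a highest of -6.00 in control arrays. The groups overlapped, the probe set was not tested, and the difference of -0.34 did not pass without the filter (adjusted p = 0.175). At this signal a change of Angpt1 was not detectable.

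The junction molecule Pecam1 was dim in every control array and scattered there more than the other tested members, with an SD of 1.10 (n = 10). Probe set 1371545_at gave -0.78, -1.23, -0.42, -1.01 and -0.77 in irradiated arrays, against a lowest of -5.18, a median of -3.77 and a highest of -2.34 in control arrays. The groups did not overlap. Pecam1 was at least 1.54-fold higher, and its measured change of 2.84 ± 0.46 (SE, adjusted p = 2.72e-05) rests on dim control values. It was 0.94 with the Sertoli centring and no longer passed (adjusted p = 0.0601), and it was -1.26 with floored values as well. The co-receptor Eng gave 0.39, 0.16, -0.18, 0.27 and 0.07 in irradiated arrays, against a lowest of -3.94, a median of -2.91 and a highest of -0.97 in control arrays (1372579_at). Control replicate 5 was the only control array above its median, and all irradiated arrays lay higher still. The Eng change was at least 1.57 on the log2 scale (measured 2.89 ± 0.41 SE, adjusted p = 6.08e-06), and 1.00 with the Sertoli centring (adjusted p = 0.0307). The Sertoli-centred change was -0.32 with floored values (adjusted p = 0.00519).

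**Figure D2:**
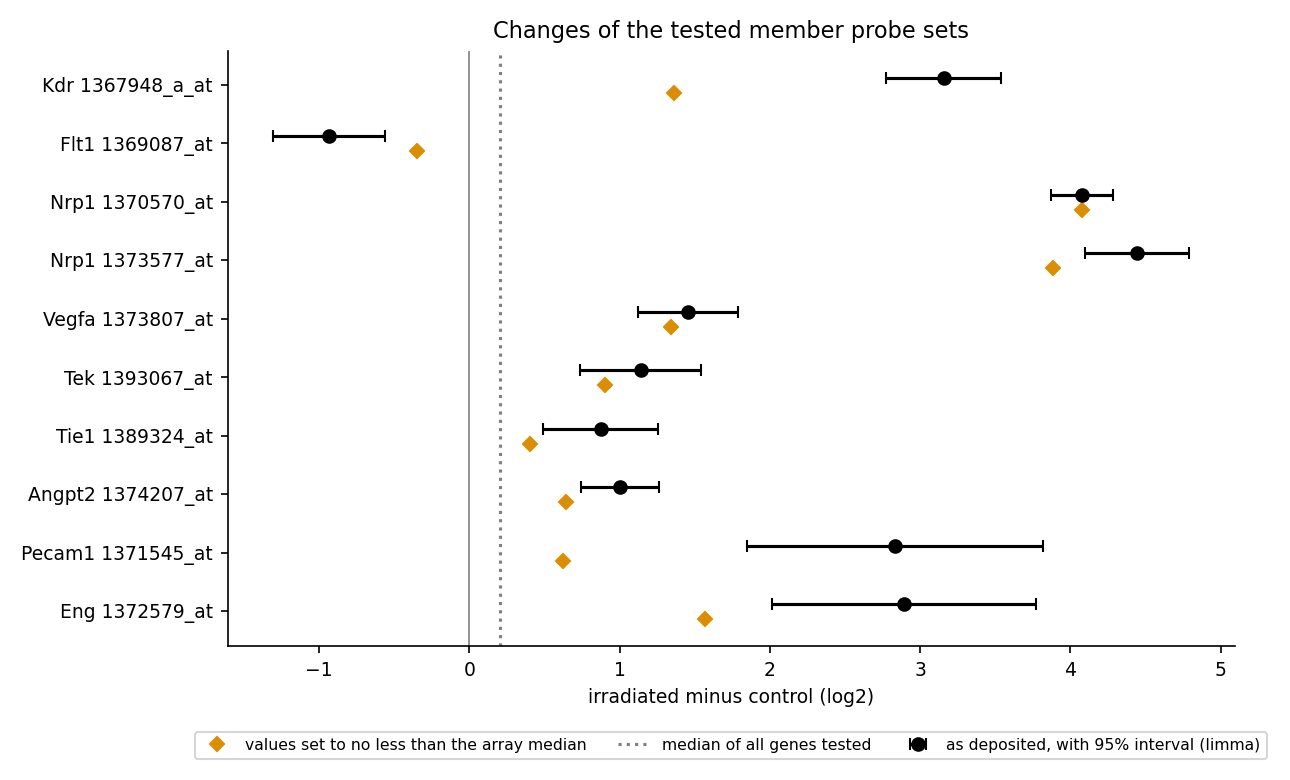
Change of each tested probe set, irradiated minus control in log2 units, as deposited with its 95% interval (black) and with every value set to no less than its array median (orange), beside the median of all genes tested (dotted, 0.20). The orange points of Kdr, Pecam1 and Eng fall well short of the black ones, while those of Nrp1 1370570_at coincide at 4.08.

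A difference between probe sets within an array is unchanged when all log2 values of that array are shifted by a constant. Quantile normalization can change it, and the pairs were not compared after it. For 6 pairs of members, the difference of their log2 signals in each array was compared between the groups. Exact 2-sided permutation tests over the 15 arrays were used, with p-values adjusted over the 6 pairs. Kdr minus Flt1 ran from 1.57 to 2.35 in irradiated arrays and from -3.06 to -1.65 in control arrays. This Kdr probe set was dim in every control array and was tested only through the irradiated arrays, and Flt1 was dim in every irradiated array, so the measured gap of 4.09 log2 units between their changes is no exact size. With values at no less than the array median the gap was 1.71. There Kdr exceeded the median in irradiated arrays only, and Flt1 in control arrays only, so the floored groups could not overlap. This fixed the exact permutation p at 0.000666, the smallest the design allows (adjusted p = 0.00133). That p-value therefore adds no support to the gap. The changes of Nrp1 and Flt1 differed by 4.43 with values at no less than the array median (exact p = 0.000666, adjusted p = 0.00133), and by 5.01 as deposited, where the dim Flt1 values enter. The floor replaced all irradiated Flt1 values and narrowed the irradiated SD of this pair from 0.42 to 0.18. Its floored p-value thus does not measure that spread. As deposited, the change of Nrp1 exceeded that of Kdr by 0.92 (exact p = 0.002, adjusted p = 0.003). That last gap was 2.71 with values at no less than the array median (adjusted p = 0.00133, exact permutation test). There the floor replaced all Kdr control values by the array median and narrowed the control SD from 0.43 to 0.14. This floored p-value therefore does not measure the spread of the pair difference. The floor cuts the Kdr change to its bound of 1.36, so 2.71 is an upper limit of this gap. The gap as deposited rests on dim Kdr control values, so neither value is an exact size. Kdr rose by 1.70 more than its ligand Vegfa as deposited (exact p = 0.000666, adjusted p = 0.00133), but with values at no less than the array median the gap was 0.02 (exact p = 0.799), so its size rests on dim control values. For Tek minus Tie1 the changes differed by 0.27 (exact p = 0.399, adjusted p = 0.479) and for Angpt2 minus Tek by -0.14 (exact p = 0.548), which the spread between control arrays did not separate from 0. With values at no less than the array median the Tek and Tie1 changes differed by 0.50 (exact p = 0.002, adjusted p = 0.003) and the Angpt2 and Tek changes by -0.26 (exact p = 0.0133, adjusted p = 0.016). There the floor replaced all but 1 of the Tie1 control values and all of the Angpt2 control values by the array median. It narrowed the control SD from 0.67 to 0.19 for Tek minus Tie1 and from 0.45 to 0.13 for Angpt2 minus Tek. These floored p-values therefore do not measure the spread of the pair differences.

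**Figure D3:**
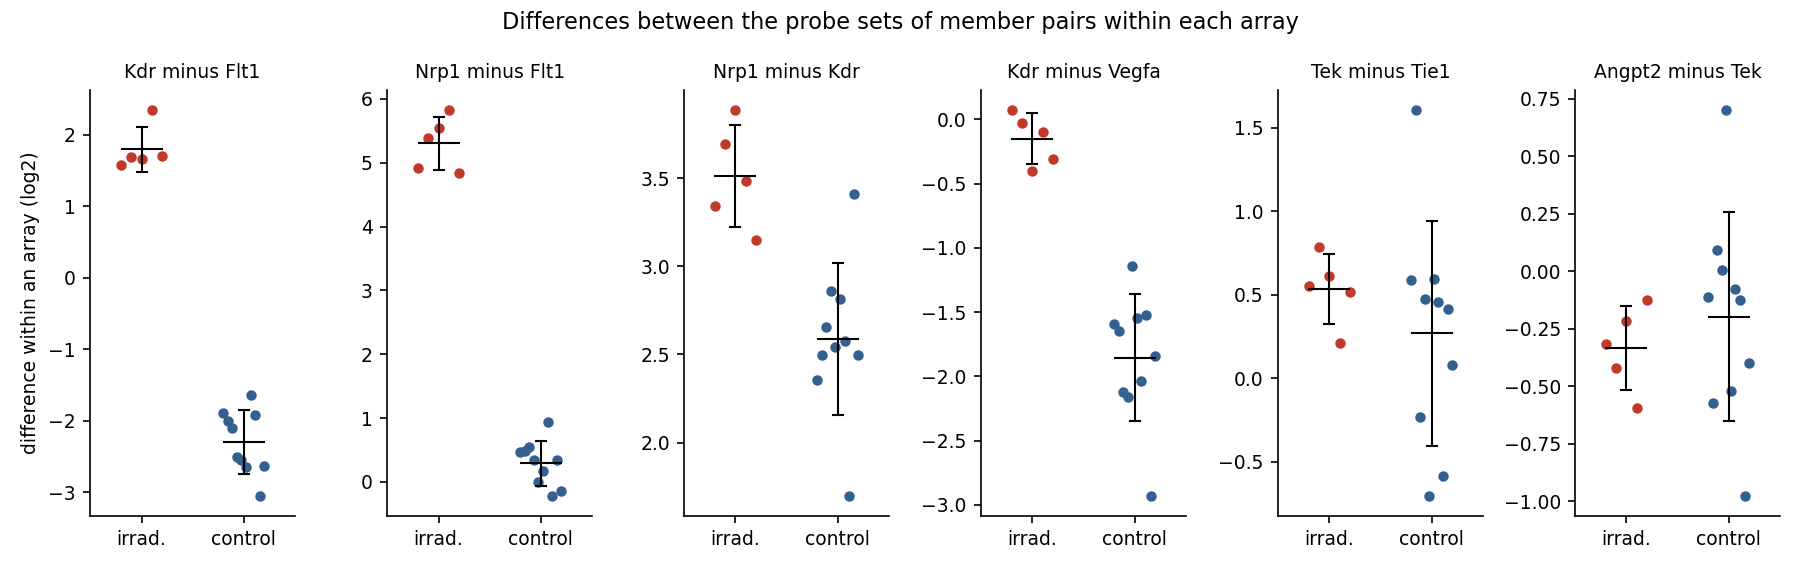
Difference in log2 signal between the probe sets of 2 members within each array, for 5 irradiated (red) and 10 control (blue) arrays, with mean and SD in black. Kdr minus Flt1, Nrp1 minus Flt1 and Kdr minus Vegfa do not overlap between the groups, whereas Tek minus Tie1 and Angpt2 minus Tek do.

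The direction of the members depended on what they were set against. As deposited, after quantile normalization and after centring arrays on their median, the 8 rises and the fall of Flt1 all passed. With the Sertoli centring, 3 genes passed higher (Kdr, Nrp1 and Eng) and 5 passed lower (Flt1, Vegfa, Tek, Tie1 and Angpt2), and Pecam1 did not pass. With floored values and the same centring, 1 gene passed higher (Nrp1) and the other 8 passed lower, Kdr, Eng and Pecam1 included. Nrp1 thus rose more than the mean of the Sertoli cell markers under either treatment of dim values, Flt1, Vegfa, Tek, Tie1 and Angpt2 lay below that mean under either, and the direction of Kdr, Eng and Pecam1 against it was not settled.

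**Figure D4:**
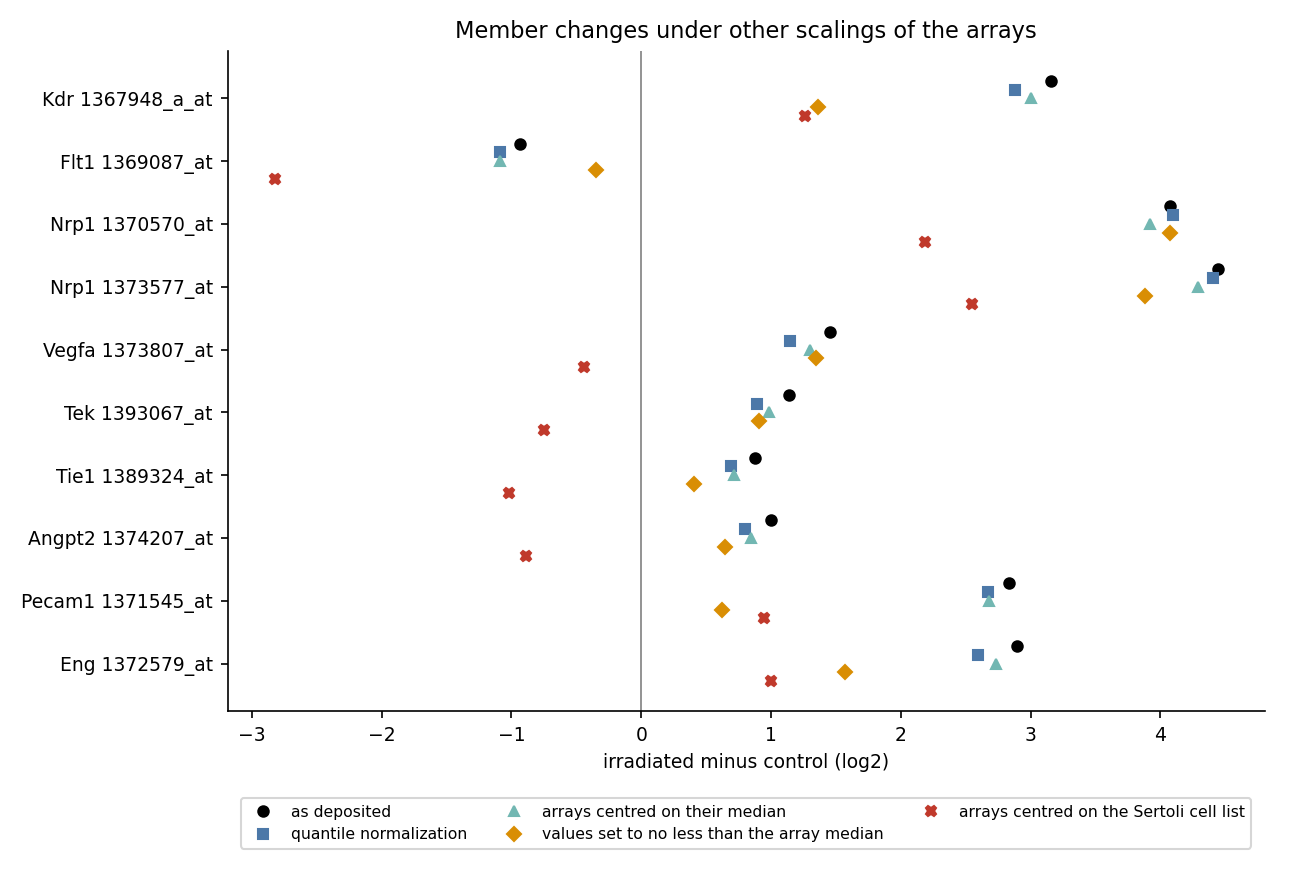
Change of each tested probe set (irradiated minus control, log2) as deposited and under 4 other treatments of the values. With the Sertoli centring (red crosses) Vegfa, Tek, Tie1 and Angpt2 move left of 0, and Nrp1, Kdr, Pecam1 and Eng stay right of it, the values of Kdr, Pecam1 and Eng resting on dim control signals.

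By the probe set with the highest mean for each gene, the wider vascular program went in both directions. Each list count as deposited, here and below, stands beside 47.6% higher and 37.9% lower among all genes tested. Of 40 other endothelial identity genes, 29 were tested, of which 18 passed higher, 5 passed lower and 6 did not pass (8 higher and 18 lower with the Sertoli centring). Their median change was 1.14, beside 0.20 over all genes tested, and 0.63 with values at no less than the array median, since 5 of them had reached the median in irradiated arrays only. The median was -0.75 with the Sertoli centring. Thbd, the anticoagulant thrombomodulin of the vessel lining, was at least 18.0-fold higher (adjusted p = 1.54e-12), and its 2 other tested probe sets changed by 4.54 and 5.03. The transcription factor gene Sox18 was at least 1.56-fold higher, and Lmo2, a partner in haemangioblast transcription complexes, rose by 2.80. Tal1, another member of such complexes, fell by at least 2.62, and Klf4, a factor induced in endothelium by flow and also present in spermatids, fell by 0.88. Fli1, an ETS factor, fell by at least 1.12 in the probe set with the highest mean, while its 3 other tested probe sets rose by 2.39 to 2.98, so its direction is uncertain. Icam2 also passed lower, but it was dim in every irradiated array (floored change -0.0026), and its other tested probe set rose by 2.80. Among genes that did not pass, the other probe set changed by 2.15 (Klf2), 1.86 (Ptprb), 0.40 (Egfl7) and -0.73 (Rasip1). The list counts thus depend on which probe set stands for a gene.

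Other ligands and receptors around VEGF gave 5 higher and 3 lower of 12 tested genes (2 and 9 with the Sertoli centring), with a median change of 0.09. It turned to -0.16 after quantile normalization and to -1.80 with the Sertoli centring. Sema3c, a secreted semaphorin that binds neuropilins, rose by 2.94, Sema3d was at least 1.95-fold higher, and the semaphorin receptor Plxnd1 rose by at least 0.69 (-0.34 with the Sertoli centring, adjusted p = 0.492). Pgf, the placental growth factor that binds Flt1 and not Kdr, passed lower (adjusted p = 0.019), but it was dim in every irradiated array and the size of its fall was not measured. It no longer passed without irradiated replicate 2 (adjusted p = 0.0785). Sema3g also passed lower and was dim in every irradiated array (adjusted p = 0.0181, and 0.052 without irradiated replicate 5), with another probe set at 1.22. Plxna3 fell by 0.71, with another probe set at 0.26.

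Genes that carry the signal inside the cell rose in 15 and fell in 3 of 21 tested, beside 47.6% higher and 37.9% lower of all genes, with a median of 1.62. With the Sertoli centring 7 passed higher and 10 lower, with a median of -0.27. The stress kinase Mapk14 (p38) rose by 3.20, the calcineurin subunit Ppp3ca by 2.90 and the protein kinase C gene Prkcb by 2.79, while the adaptor Nck1 fell by 0.81, the kinase Map2k2 by 0.60 and the small heat shock protein Hspb1 by 0.59. Of 5 tested genes listed with the angiopoietin and Tie system, angiopoietin-like genes among them, 3 rose and 2 did not pass (1 higher and 3 lower with the Sertoli centring). Angptl4, a secreted inhibitor of lipoprotein lipase, rose by at least 2.21, Tnip2, whose protein is known to bind Tek, by at least 1.78, and Foxo1, a factor that Tek signalling restrains, by at least 0.72 (-0.94 with the Sertoli centring). Endoglin's partners and the BMP pathway rose in 10 and fell in 2 of 15 tested, with a median of 1.16 (5 higher and 10 lower, median -0.73, with the Sertoli centring). Id2, a target of BMP signalling, rose by 4.05 and the transducer Smad1 by 3.09, and the receptor Bmpr2 was at least 1.95-fold higher. The activin receptor Acvr2a fell by 0.85, and Smad7, an inhibitor of the pathway, passed lower (adjusted p = 0.000488) but was dim in every irradiated array.

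Hypoxia sensors and targets, which include regulators of Vegfa, rose in 12 and fell in 3 of 17 tested, with a median of 1.55 (4 higher and 9 lower, median -0.34, with the Sertoli centring). Hif1a, the oxygen-regulated factor that drives Vegfa transcription, rose by 2.63 ± 0.09 (SE, adjusted p = 9.31e-14), the stress gene Ddit4 rose by 2.48, and the vasodilator peptide gene Adm was at least 1.27-fold higher. Egln2, a prolyl hydroxylase that marks HIF for destruction, fell by 1.07, Ldha by 1.55 and the histone demethylase Kdm3a by 1.77. Ldha and Kdm3a are known as HIF targets, and whether HIF activity changed was not tested. The list of angiogenesis inhibitors, which also holds Vash2, gave 8 higher and 2 lower of 10 tested, with a median of 2.50 (6 higher and 3 lower, median 0.61, with the Sertoli centring). The 2 lower were Vash2 and Thbs2, and Thbs2 was dim in every irradiated array, with a floored change of 0.07. The matrix proteoglycan Dcn rose by 3.74 and the matrix protein Sparc by 3.23, the protease Adamts1 was at least 3.74-fold higher, and Vash2, a relative of the inhibitor Vash1 that is known to promote angiogenesis, fell by 3.06, with its other probe sets between -4.65 and -1.60.

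Markers of the cells that could share or carry these transcripts moved as well, and their part in the member changes was not tested. Pericyte and vascular smooth muscle markers rose in 9 of 11 tested and fell in none, where 2 had reached the array median in irradiated arrays only. Sertoli centring turned these counts to 2 higher and 8 lower, with a median of -0.69. Their mean log2 signal lay between 0.12 and 0.49 in irradiated arrays, against -1.26 to -0.92 in control arrays. Tagln was at least 4.76-fold higher, the channel subunit Abcc9 rose by at least 1.89, and desmin (Des) by 1.76 (-0.13 with the Sertoli centring). Of 3 tested lymphatic markers Pdpn rose by at least 1.09 and Reln by 1.24 (-0.58 and -0.65 with the Sertoli centring), and Prox1, the defining factor of lymphatic endothelium, did not pass (adjusted p = 0.122). Red blood cell genes rose in 3 of 4 tested, Hbb by 2.24, Alas2 by 1.41 and Hba-a3 by 1.03, and Slc4a1 was at least 1.26-fold lower. With the Sertoli centring Alas2 and Hba-a3 changed by -0.48 and -0.86, and globin probe sets may share signal with close paralogs. Platelet genes, whose cells also carry Pecam1, went both ways: Pf4, also a macrophage gene, rose by at least 2.81, Ppbp was at least 1.29-fold lower, and Gp9 passed lower but was dim in every irradiated array. Macrophage markers, whose cells can carry Nrp1 and Pecam1, rose in 13 of 15 tested and fell in 2. Of these markers, 4 had reached the array median in irradiated arrays only and so could be called only higher. The 2 that fell were the defining marker Adgre1, at least 1.69-fold lower, and Aif1, by 3.25 from a control mean of 3.24. Another Aif1 probe set changed by -0.56, and which cells gave the Aif1 signal was not tested. Sertoli centring left 9 macrophage markers higher and 4 lower. The macrophage list had a mean log2 signal between 0.75 and 1.02 in irradiated arrays, against -1.72 to -0.92 in control arrays. Leydig cell markers rose in 12 of 13 tested and fell in 1 (Ptgds, by 0.60; 8 higher and 3 lower with the Sertoli centring), with a mean between 2.33 and 2.69 in irradiated arrays, against -0.47 to 0.07 in control arrays.

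**Figure D5:**
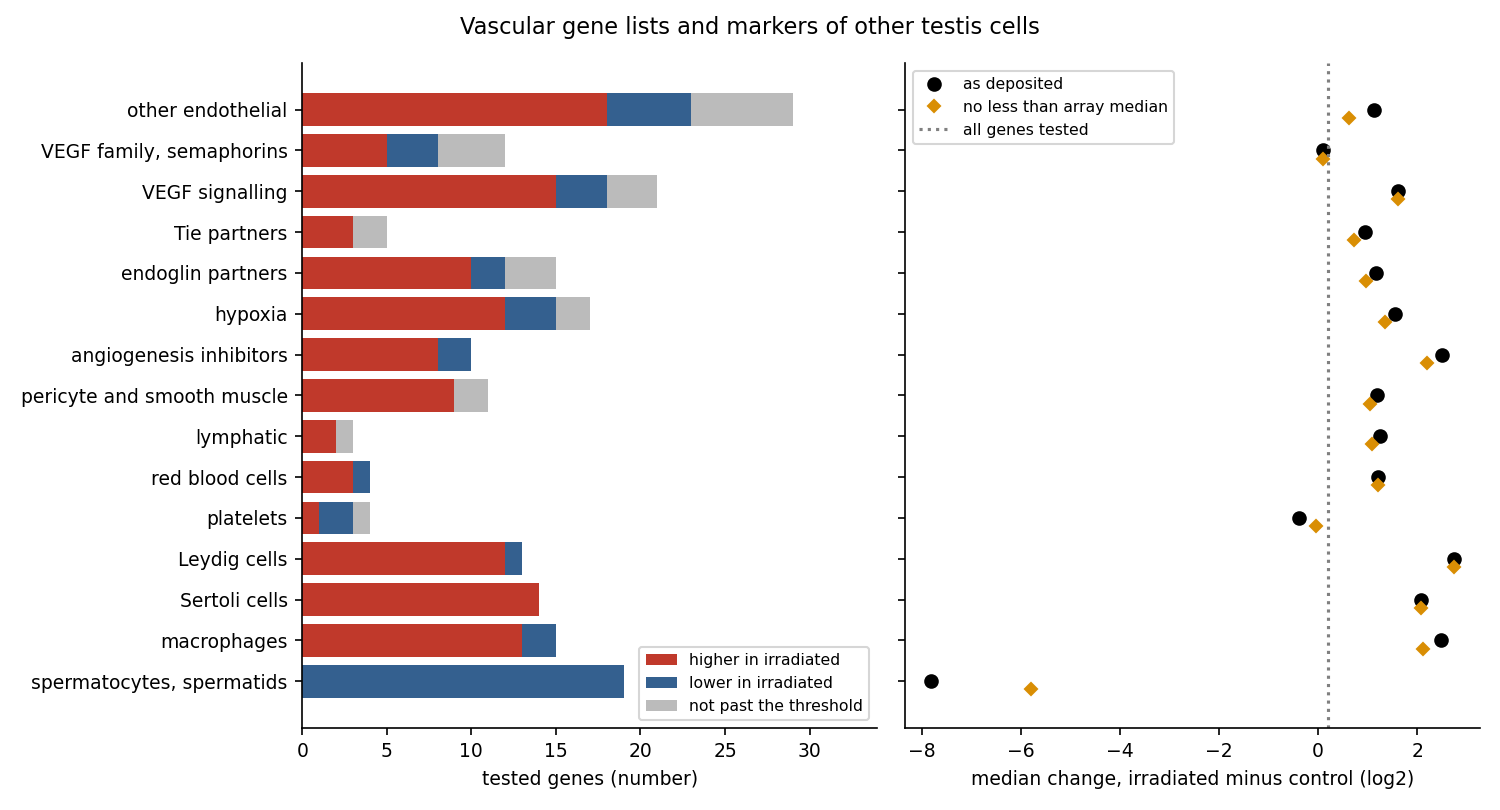
Left, number of tested genes of each list that passed higher (red), passed lower (blue) or did not pass (grey) in irradiated testes. Right, the median change of each list as deposited (black) and with values at no less than the array median (orange), with the median of all genes tested dotted at 0.20. The germ cell list lies on the far left at -7.82, the Leydig cell list farthest right at 2.74, and the other endothelial genes at 1.14.

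The genes whose profiles over the 15 arrays were most like 3 of the members were found by the root mean square difference between log2 profiles, each centred on its own mean. Nearest to Kdr were Adam23 (0.23) and Lhcgr (0.26), to Vegfa Prkd3 (0.19) and Rheb (0.20), and to Pecam1 Ecm2 (0.64) and Mex3d (0.67). The profiles of Kdr and Pecam1 include control values that were dim in every array, so which genes lie nearest to them depends on signals below the array median. Lhcgr, the luteinizing hormone receptor of Leydig cells, changed by 3.11 and Rheb, an activator of mTOR signalling, by 1.52.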

How the data were processed

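The authors deposited log2 signals of 31099 probe sets on 15 arrays. Per the submitters' processing notes they came from MAS5, with scaling, filtering and logging not given in the sources used here. That the base is 2 was checked on the hybridisation spike-ins, which rose by 0.88 to 1.06 per doubling of their nominal concentration. No array column was left unused (0), and no read depth exists for arrays, whose number limits the precision. Per the labels, labelling started from 10 µg of total RNA.

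Names came from the 2016 platform annotation. The 57 control probe sets were left out of the tests, and 18711 probe sets reached their array's median in at least 5 arrays. The groups were tested against each other in R 4.3.3 by limma 3.58.1 (lmFit, then eBayes) at a Benjamini-Hochberg adjusted p of 0.05 over the tested probe sets, 2-sided, which gave all adjusted p-values except those of member pairs (scipy 1.17.1). The tested probe set with the highest mean stood for a gene. Errors are limma's moderated standard errors unless called SD. The fit was tested on simulated data.

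The members and lists were chosen with earlier results of these data known. Every member was named. From each vascular and blood list the text names up to 3 genes with the highest and 3 with the lowest change among those that passed with a group mean above the array median, and gives other cell types by counts. Prox1, Adgre1, Aif1, Ptgds, Icam2, Klf2, Ptprb, Egfl7, Rasip1 and Thbs2 were named outside this after their values were seen. The tested Sertoli cell markers were listed in full. Arrays with the same replicate number did not deviate together (correlations from -0.05 to 0.07 over 5 pairs), so the block by number is only an alternative. Other alternatives were other scalings, filters, variance models, array weights and left-out arrays. Genes of the lists that the annotation used here does not name were not analysed here.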

Additional observations from a re-analysis of the deposited data

Results flagged for a closer look

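Within-group outliers were sought by the gap of the highest or lowest array to its nearest neighbour as a share of the group's range (Dixon's criterion at its 95% level), over the 15 member probe sets and 48 other named genes, in 126 groups of arrays. Of these, 15 stood out, and chance flags about 1 in 20.

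Among the members, 2 did. Kdr probe set 1397868_at lay at -6.27 in control replicate 6, where the nearest control array was at -4.98. Flt1 probe set 1370492_a_at lay at -4.63 in control replicate 8, against -2.88 in the nearest control array. Both probe sets were untested, and both values lay below the array median.

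The other 13 were in genes of the wider lists. In irradiated arrays, 4 values stood apart, namely Fli1 at -0.90 in replicate 3, Mapk14 at 1.95 in replicate 3, Kdm3a at -0.051 in replicate 4 and Des at 0.27 in replicate 3. In control arrays, Pgf lay at -2.51 in replicate 6, Sema3g lay at -2.12 in replicate 4, Prkcb lay at -2.29 in replicate 10 and Foxo1 lay at -3.29 in replicate 8. Likewise, Tnip2 lay at -2.91 in replicate 1, Acvr2a lay at -0.81 in replicate 10, Reln lay at -1.99 in replicate 3, Slc4a1 lay at -2.95 in replicate 2 and Gp9 lay at -2.96 in replicate 4.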

How the results depend on the processing

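The 10 tested member probe sets kept their direction and passed after quantile normalization, centring on the array median, no filter, values at no less than the array median, a trended robust variance model, array weights, and without control replicates 6, 7 and 8, the arrays with the highest difference between 3' and 5' actin signals. They also kept both without each of the 15 arrays in turn, where the member counts stayed at 8 higher and 1 lower, those of the endothelial list at 17 to 18 higher and 5 lower, and all probe sets past the threshold at 15217 to 15649. In the fit with the replicate block, 8 member genes passed higher and 1 lower, with changes from -0.97 (Flt1) to 4.57 (Nrp1 1373577_at), and 15123 probe sets passed. Only 1 of 5 irradiated arrays correlated best with the control array of its own number. The block ended the calls of Pgf (adjusted p = 0.0587) and Sema3g (adjusted p = 0.101).

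With each array centred on its Sertoli cell markers, the members split into 3 higher and 5 lower, and the endothelial list into 8 higher and 18 lower. The changes that reversed were Vegfa (-0.44), Tek (-0.75), Tie1 (-1.02), Angpt2 (-0.89), Plxnd1 (-0.34), Foxo1 (-0.94), Des (-0.13), Pdpn (-0.58), Reln (-0.65), Hba-a3 (-0.86) and Alas2 (-0.48). With the floor and this centring together, a pair of choices made after seeing the data, the members split into 1 higher and 8 lower and the endothelial list into 5 higher and 22 lower. The reversed changes were then Kdr (-0.53), Vegfa (-0.54), Tek (-0.99), Tie1 (-1.48), Angpt2 (-1.25), Pecam1 (-1.26), Eng (-0.32), Sox18 (-1.25), Sema3d (-0.92), Plxnd1 (-1.20), Foxo1 (-1.17), Tnip2 (-0.10), Bmpr2 (-0.92), Adm (-1.54), Des (-0.13), Pdpn (-0.80), Reln (-0.70), Hba-a3 (-0.86) and Alas2 (-0.48). This follows from the centring itself, which lowers every change by the rise of the Sertoli cell markers. Of all calls, 12.8% were higher in irradiated arrays with the centring alone, 8.27% with both choices and 58.8% as deposited.

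A filter at the 75th percentile tested fewer probe sets and left 9442 past the threshold, 1 member gene higher (Nrp1) and 0 lower, and 9 endothelial genes higher and 3 lower. With values at no less than the array median, Pgf, Sema3g, Smad7 and Gp9 no longer passed. Most members lay near or below the array median in control arrays, which limits the size of their changes to bounds.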
